A study of Mus musculus with 7 samples.

Results

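Receptor tyrosine kinases are cell-surface receptors whose inner part adds phosphate to tyrosine residues once a growth factor brings receptor molecules together. The phosphotyrosines recruit adaptor proteins, which pass the signal to Ras and the ERK kinases and to PI3 kinase and AKT. In human glioblastoma this class of receptors is well known as a site of amplification and mutation, with EGFR the most familiar case, and in normal brain several of the same receptors are genes of neurons, astrocytes and oligodendrocyte precursors. The account covers 10 receptor genes, taken as a given list, of 37620 gene identifiers in the count tables: Egfr, Erbb2 and Erbb3 of the epidermal growth factor receptor family, Met, Axl, Igf1r, the fibroblast growth factor receptors Fgfr1, Fgfr2 and Fgfr3, and Ntrk2. All 10 had counts in every tumour, 140 to 27959 per tumour, and all 10 passed the filter on low counts.

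RNA was sequenced in bulk from 7 mouse brain tumours, each with 1 library. The 3 GSC2 tumours came from a line labelled shp53, Nf1-/-, CDK4, which names a short hairpin against p53, loss of the Ras inhibitor neurofibromin and the cyclin-dependent kinase CDK4. The 4 GSC1 tumours came from a line labelled lgT/Ras. Both were glioblastoma stem-like lines made from neural stem cells (NSC) of the subventricular zone, a neurogenic niche beside the lateral ventricle. They were grown as NSC cultures for 10 to 15 passages and then placed in the brains of nude mice, which lack T cells but keep microglia, macrophages and all normal brain tissue. Each set of genetic changes existed as 1 line, so the comparison of GSC2 with GSC1 is one of lines, and its p-values measure the spread between tumours grown from the same cells. Host and implanted cells are both mouse, so a read cannot be assigned to tumour or host.

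The libraries held 18643155 to 32643408 counts on genes. Levels are given in CPM, counts scaled to library size with TMM factors, which correct for differences in library composition. Normal brain markers varied widely, so a brain score was taken for each tumour, the mean log2 CPM of 12 neuron and 12 mature oligodendrocyte markers, a set that holds no receptor of the list. It was 6.40, 7.78 and 7.76 in GSC2 tumours 1 to 3 and 6.29, 4.95, 8.50 and 7.80 in GSC1 tumours 1 to 4. Summed astrocyte markers (11 genes, none at 0 in any library) were at 2822 to 7559 CPM in GSC2 and 1961 to 15609 CPM in GSC1. Markers of cerebellum and hindbrain reached 347 and 559 CPM in GSC1 tumours 3 and 4 and at most 2.10 CPM in each of the others. In the libraries of GSC2 tumour 3 and GSC1 tumours 3 and 4, called short-biased here, long transcripts were low relative to short ones. Their brain scores were high, at 7.76, 8.50 and 7.80, and of the other tumours only GSC2 tumour 2, at 7.78, was that high. Brain score and length bias therefore cannot be fully told apart in these tumours. These libraries were chosen as the 3 lowest on a length measure. It sets the median log2 deviation of long genes (8000 bases or more) against that of short genes (2000 or fewer). The measure was -0.70 to -0.36 in these 3 and 0.016 to 0.64 in the other 4, ranges that cannot overlap because of that choice.

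The receptor genes did not separate the lines. Their values overlapped between GSC2 and GSC1 for all 10 genes, and in the fit of line alone each had an edgeR adjusted p of 0.9999. Within a line, in contrast, several receptors varied several-fold between tumours. Over all 7 tumours 6 of the 10 varied at least 3-fold, beside 48.2% of all genes tested. Of the 10, 3 were high where normal brain markers were high (Ntrk2, Fgfr2 and Fgfr3), beside 23.4% of all genes. Another 5 were low there (Igf1r, Erbb2, Fgfr1, Met and Axl), beside 22.9% of all genes. Axl, Fgfr1 and Ntrk2 had the highest levels per transcript length.

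**Figure D1:**
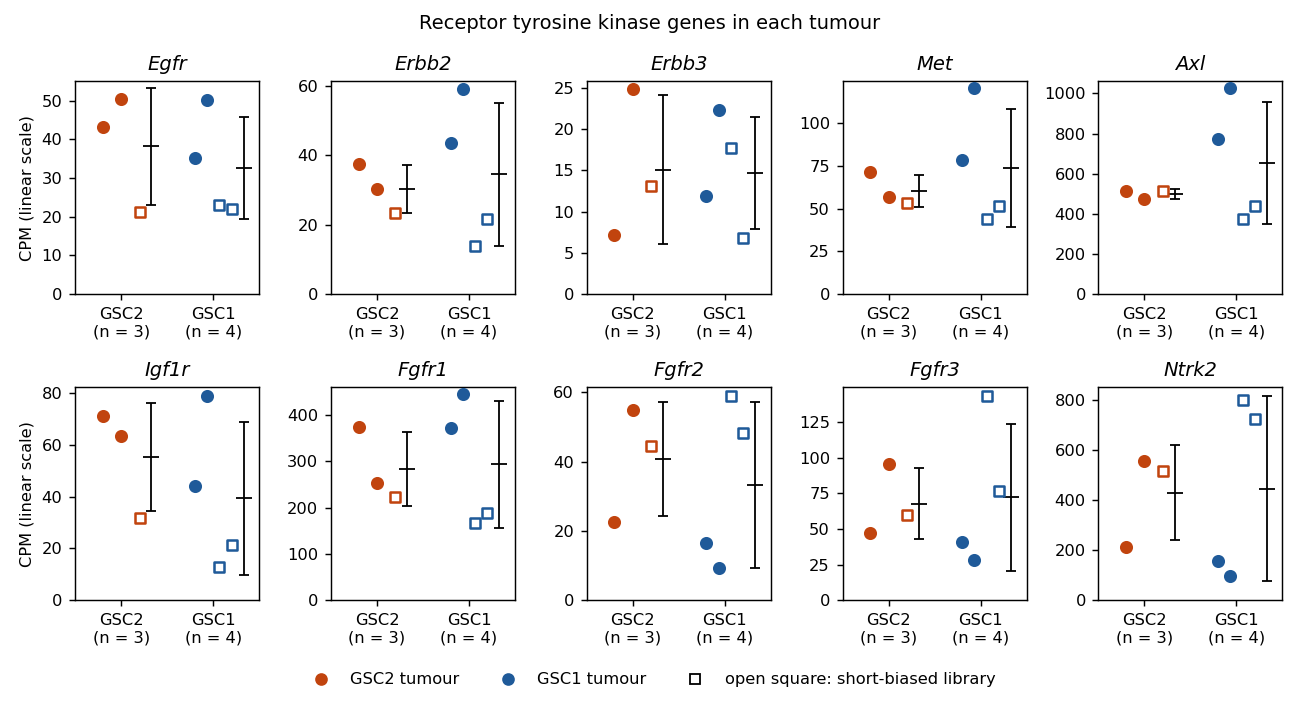
CPM of the 10 receptor genes in each tumour on a linear axis from 0, with GSC2 (3 tumours) left of GSC1 (4 tumours) in every panel. Points are tumours, open squares are short-biased libraries, and the black mark with its bar is the mean ± SD of the line. GSC2 points overlap the range of GSC1 points for every gene, and the GSC1 bars are the longer ones for 8 of the 10.

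The plot of CPM by tumour shows this overlap gene by gene, and the values follow by receptor family. The ERBB receptors bind, as a family, ligands of the epidermal growth factor and neuregulin type. Egfr, the receptor for EGF, TGF-alpha and amphiregulin, was at 43.1, 50.3 and 21.3 CPM in GSC2 tumours 1 to 3, against 35.1, 50.2, 23.1 and 21.9 CPM in GSC1 tumours 1 to 4. The highest Egfr values of the lines were nearly equal, and the lowest values of both lines were in short-biased libraries, GSC2 tumour 3 and GSC1 tumours 3 and 4. Egfr differed by a log2 fold change (GSC2 minus GSC1) of 0.23 (SE 0.41, edgeR quasi-likelihood test, unadjusted p = 0.592, Benjamini-Hochberg adjusted p = 0.9999). Its longest annotated transcript has 10208 bases, and slopes with the length bias removed are given with the score results.

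Erbb2, the ligandless partner of the other ERBB receptors, was at 37.4, 30.2 and 23.4 CPM in GSC2 tumours and 43.6, 59.2, 14.0 and 21.7 CPM in GSC1 tumours. All GSC2 values lay inside the GSC1 range, which spanned 4.22-fold (log2 fold change -0.19, SE 0.50). Erbb3, a neuregulin receptor with little kinase activity of its own that signals through its partner, was at 7.12, 24.9 and 13.1 CPM in GSC2 and 11.9, 22.3, 17.7 and 6.86 CPM in GSC1. High and low Erbb3 tumours occurred in both lines, and the fold change was 0.03 (SE 0.53).

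Met, the receptor for hepatocyte growth factor, was at 71.3, 56.8 and 53.6 CPM in GSC2 and 78.7, 121, 44.0 and 51.5 CPM in GSC1 (log2 fold change -0.28, SE 0.38). GSC1 tumour 2 stood highest for Met, and the GSC2 values lay inside the range of the other GSC1 tumours. Axl, a TAM family receptor for GAS6 that is often high in mesenchymal-type human glioblastoma, was at 516, 472 and 514 CPM in GSC2 tumours. In GSC1 tumours Axl was at 771, 1028, 373 and 437 CPM. The GSC2 tumours were nearly alike for Axl, at 501 ± 24.8 CPM (SD, n = 3), and fell between the high and low GSC1 tumours, whose mean was 652 ± 305 CPM (SD, n = 4). With a log2 fold change of -0.38 (SE 0.38, unadjusted p = 0.349, adjusted p = 0.9999, edgeR quasi-likelihood test), Axl had the smallest p of the 10 receptor genes.

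Igf1r, the receptor for IGF1 and IGF2, was at 71.0, 63.3 and 31.7 CPM in GSC2 and 44.2, 78.8, 13.04 and 21.4 CPM in GSC1. The lowest Igf1r value of each line again came from a short-biased library. Its fold change was the largest of the list, 0.49 on the log2 scale (SE 0.61, edgeR quasi-likelihood test, adjusted p = 0.9999). The 95% interval, from the SE and a t value on 5 residual degrees of freedom, was -1.09 to 2.07.

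Fgfr1, the fibroblast growth factor receptor found broadly in neural stem cells and neurons, was at 374, 254 and 223 CPM in GSC2 and 372, 446, 168 and 188 CPM in GSC1 (log2 fold change -0.05, SE 0.41). GSC2 tumour 1 and GSC1 tumour 1 were almost equal in Fgfr1. Fgfr2, in brain chiefly a receptor of astrocytes and the oligodendrocyte lineage, was at 22.7, 54.9 and 44.5 CPM in GSC2 and 16.6, 9.26, 59.0 and 48.2 CPM in GSC1 (0.29, SE 0.65). Fgfr3, an astrocyte-rich receptor in mouse brain, was at 47.5, 95.7 and 60.0 CPM in GSC2 and 40.7, 28.4, 143 and 76.4 CPM in GSC1 (-0.09, SE 0.57). For both Fgfr2 and Fgfr3 the lowest values came from GSC1 tumours 1 and 2, followed by GSC2 tumour 1, the same 3 tumours that were highest in Fgfr1. Fgfr1 made up 84.2, 62.8 and 68.1% of the summed counts of the 3 receptors in GSC2 tumours and 86.6, 92.2, 45.4 and 60.1% in GSC1 tumours.

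Ntrk2, which encodes TrkB, the receptor for BDNF, was at 213, 557 and 518 CPM in GSC2 and 157, 97.1, 799.8 and 726 CPM in GSC1. The GSC1 tumours held both the lowest and the highest Ntrk2 values, 8.24-fold apart, and the GSC2 tumours lay between (log2 fold change -0.05, SE 0.78). In brain, full-length TrkB is a receptor of neurons and a truncated form without the kinase is abundant in astrocytes. The counts are totals per gene and do not separate these forms.

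None of the 10 receptor genes passed the test between the lines, in which 0 of 16068 genes (0%) passed. An unadjusted p under 0.05 was found for 0 receptor genes and for 4.21% of all genes, DESeq2 called 0 receptor genes and 1.20% of all genes, and limma-voom called 0 receptor genes and 1 gene in all (0.00622%). Values did not overlap for 0 receptor genes and for 5.58% of all genes. Of the folds, 4 were above 0 and 6 below, with a median of -0.05, against 46.3% above 0 and a median of -0.03 over all genes. The 95% intervals of the 10 folds reached 0.965 to 1.99 log2 units to either side of the estimate. They use a t value on 5 residual degrees of freedom, whereas edgeR's test moderates its degrees of freedom over genes. They ran from -1.25 to 0.68 for Met, the narrowest, and from -2.04 to 1.94 for Ntrk2, the widest. For 8 of the 10 genes the SD in GSC1 exceeded that in GSC2, and the share over all genes was not computed. The brain score spread more in GSC1 as well, with an SD of 1.59 against 0.79 in GSC2.

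**Figure D2:**
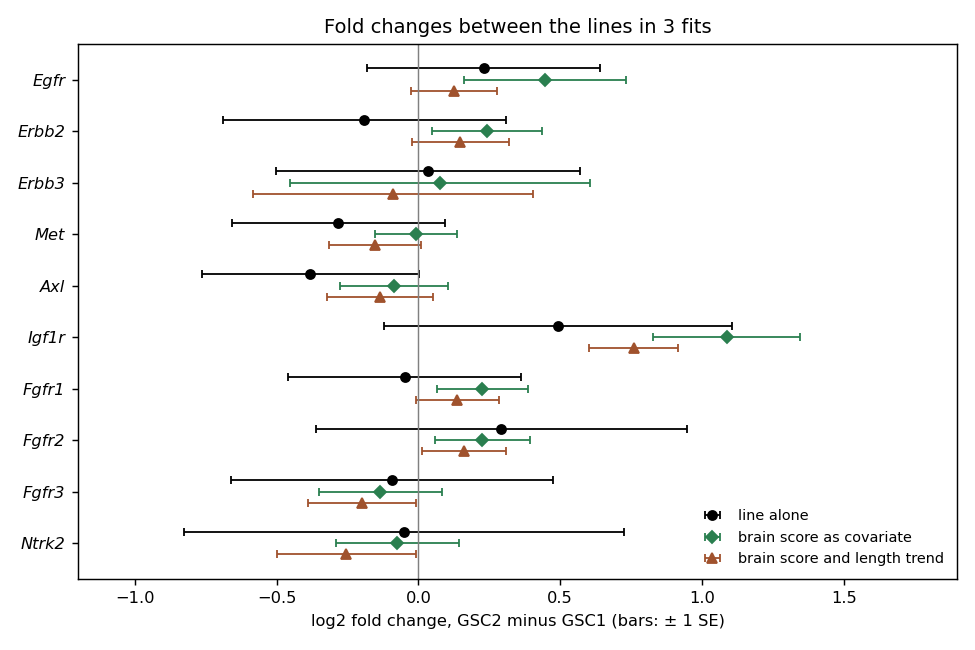
Log2 fold change of each receptor gene, GSC2 minus GSC1, from edgeR's fits of line alone (circles), with the brain score (diamonds) and with the score and a length trend (triangles). Bars are ± 1 SE, and Igf1r has the largest fold in each fit, from 0.49 to 1.09.

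A fit that also holds the brain score compares the lines at equal score, and the plot of fold changes sets those values beside the first. Igf1r then was higher in GSC2 by 1.09 on the log2 scale (SE 0.26, edgeR quasi-likelihood test, adjusted p = 0.0887), which did not pass the threshold. With a trend on transcript length removed as well, its value was 0.76 (SE 0.16, adjusted p = 0.0558, edgeR). Without the 3 short-biased libraries, in a fit of line alone, the Igf1r fold was 0.13 (SE 0.30). In that fit the folds of Ntrk2, Fgfr2 and Fgfr3 were 1.60, 1.58 and 1.05, and those of Axl, Met and Erbb2 -0.87, -0.64 and -0.61. No receptor gene of the list was called there, and 55 genes were called in all. The tumours left had scores of 6.29 and 4.95 in GSC1 and 6.40 and 7.78 in GSC2. Line and score therefore cannot be told apart in these folds. At equal score Egfr was at 0.44 (SE 0.29), and the other 8 were between -0.13 and 0.24. No receptor gene of the list passed in either fit with the score, where 0.859% and 1.76% of all genes did. Insr, the insulin receptor gene and the nearest relative of Igf1r, passed in both and was at 219.8, 138 and 77.8 CPM in GSC2 and 92.6, 162, 34.5 and 41.5 CPM in GSC1. Its values overlapped between the lines, and its log2 fold change was 0.81 for line alone (SE 0.60), 1.29 at equal score (SE 0.21, edgeR adjusted p = 0.0463) and 1.03 with the length trend as well (SE 0.13, edgeR adjusted p = 0.0160). The score is measured in the same 7 libraries, so these fits describe differences at equal score and are not independent of the score.

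The brain score gave more calls than the line did, for the receptor genes and for all genes tested alike (46.3% of all genes against 0%). With a slope common to both lines, Ntrk2, Fgfr2 and Fgfr3 rose with the brain score, and Igf1r, Erbb2, Fgfr1, Met and Axl fell. In GSC2, tumours 2 and 3 had nearly equal scores, 7.78 and 7.76, above 6.40 in tumour 1. Both were higher than tumour 1 in Ntrk2, Fgfr2 and Fgfr3 and lower in Erbb2, Fgfr1, Met and Igf1r. Igf1r was at 63.3 and 31.7 CPM in these GSC2 tumours 2 and 3. Axl was at 516, 472 and 514 CPM in GSC2 tumours 1 to 3, nearly equal in tumours 1 and 3. Ntrk2 rose 1.94-fold per unit of score (slope 0.95 in log2 CPM, SE 0.10, edgeR quasi-likelihood test with line in the fit, adjusted p = 0.000639), over a score range of 3.55 units. Fgfr2 rose 1.74-fold per unit (slope 0.80, SE 0.08, adjusted p = 0.000517, edgeR) and Fgfr3 1.54-fold (slope 0.62, SE 0.09, adjusted p = 0.0021, edgeR). These 3 kept their direction and their call in every setting tried.

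**Figure D3:**
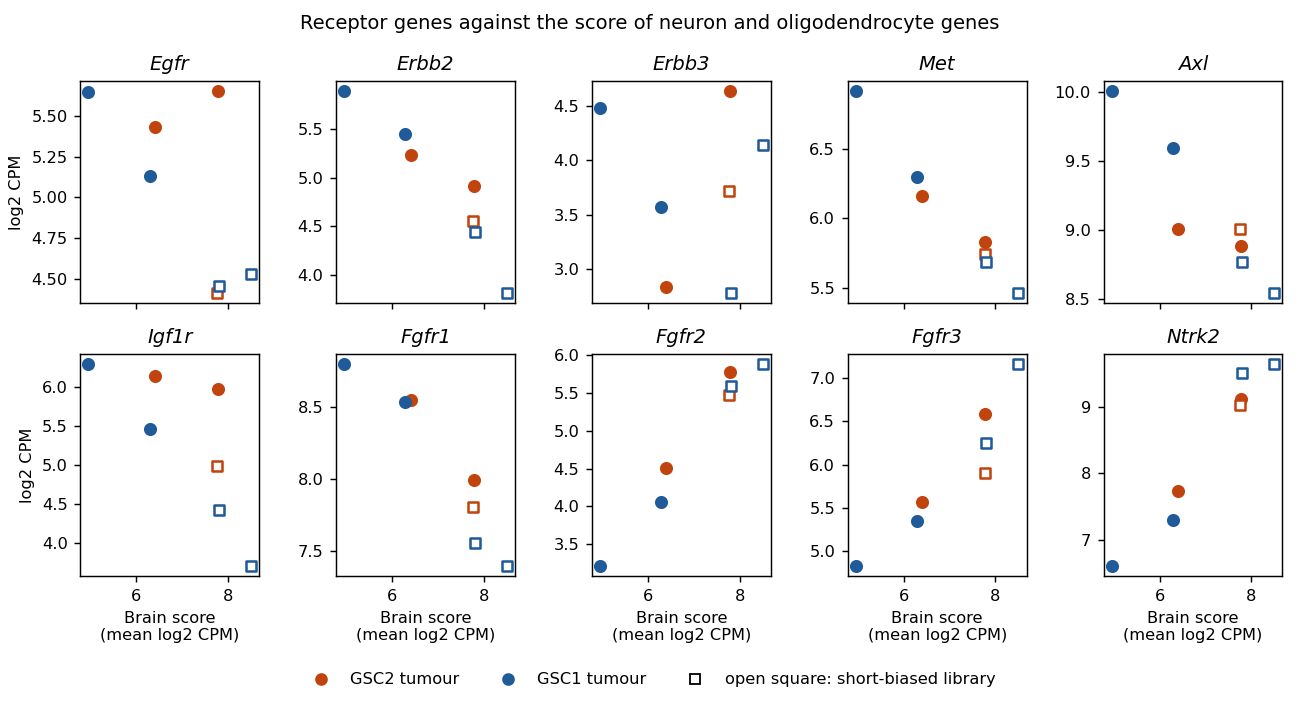
Log2 CPM of each receptor gene (y) against the brain score (x), for GSC2 and GSC1 tumours, with short-biased libraries as open squares and a y axis of its own for each panel. Ntrk2, Fgfr2 and Fgfr3 climb from the GSC1 tumour with the lowest score, at 4.95, to the GSC1 tumour with the highest, at 8.50, while Igf1r, Erbb2, Fgfr1, Met and Axl descend.

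Astrocyte markers moved with these 3 receptors: 10 of the 11 rose with the score, beside 23.4% of all genes. Their sum was 2822, 7559 and 7455 CPM in GSC2 tumours and 2676, 1961, 15609 and 13087 CPM in GSC1 tumours. Of 8 markers of oligodendrocyte progenitors, cells that also carry fibroblast growth factor receptors, 6 rose. Other marker sets rose as well, 5 of 5 for ependyma, 4 of 5 for fibroblasts and 4 of 6 for mural cells of vessels. Fewer rose for macrophages (3 of 7), endothelium (3 of 8), microglia (2 of 8) and choroid plexus (0 of 7). Astrocytes and progenitors are thus not singled out. Ntrk2 was highest in the same 2 GSC1 tumours in which the astrocyte sum was highest, and the part of any of these cell types in the receptor values was not tested. In bulk RNA, fewer cells of a type and less RNA per cell cannot be told apart.

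The steepest fall was that of Igf1r, to 0.627 of its level per unit of score (slope -0.67, SE 0.11, adjusted p = 0.0029, edgeR quasi-likelihood test). Erbb2 followed with a slope of -0.55 (SE 0.09, edgeR adjusted p = 0.0022), then Fgfr1 at -0.44 (SE 0.07, edgeR adjusted p = 0.0025), Met at -0.39 (SE 0.06, edgeR adjusted p = 0.0023) and Axl at -0.38 (SE 0.08, edgeR adjusted p = 0.0074). Egfr sloped by -0.32 (SE 0.12, edgeR adjusted p = 0.0592) and Erbb3 by -0.05 (SE 0.21, edgeR adjusted p = 0.866), and neither passed. Proliferation markers, 7 of 7 of which fell with the score, summed to 1199, 708 and 564 CPM in GSC2 tumours and 960.4, 1429, 201 and 318 CPM in GSC1 tumours. They were highest in the GSC1 tumour with the highest Erbb2, Fgfr1, Met, Axl and Igf1r, and their part in these values was not tested.

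Calls on the score were frequent over all genes, 46.3% of those tested, with 23.4% rising and 22.9% falling, beside 8 of the 10 receptor genes, 3 rising and 5 falling. The median slope of the 10 was -0.35, against 0.00 over all genes. The 3 rises among the 10 were near the share of all genes. None of the 5 falls kept its call in every setting tried. In a fit of the score alone without the 3 short-biased libraries 3 rose and 1, Met, fell narrowly (edgeR adjusted p = 0.0499). Of all genes, 8.15% rose and 0.987% fell in it. Among its 4 tumours both GSC2 scores were above both GSC1 scores, so score and line cannot be told apart in it. Igf1r, the steepest fall, was at -0.088 in that fit (edgeR adjusted p = 0.710), and it did not pass in a fit of the score alone over all 7 tumours (-0.53, edgeR adjusted p = 0.0630). With the length trend removed, Igf1r was at -0.47 (edgeR adjusted p = 0.0014), and Egfr was at -0.14 (edgeR adjusted p = 0.103). Axl did not pass without GSC1 tumour 2 (edgeR adjusted p = 0.0930) or without GSC1 tumour 3 (edgeR adjusted p = 0.0754), and Egfr passed without GSC2 tumour 2 (edgeR adjusted p = 0.0085) or GSC2 tumour 3 (edgeR adjusted p = 0.0368).

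**Figure D4:**
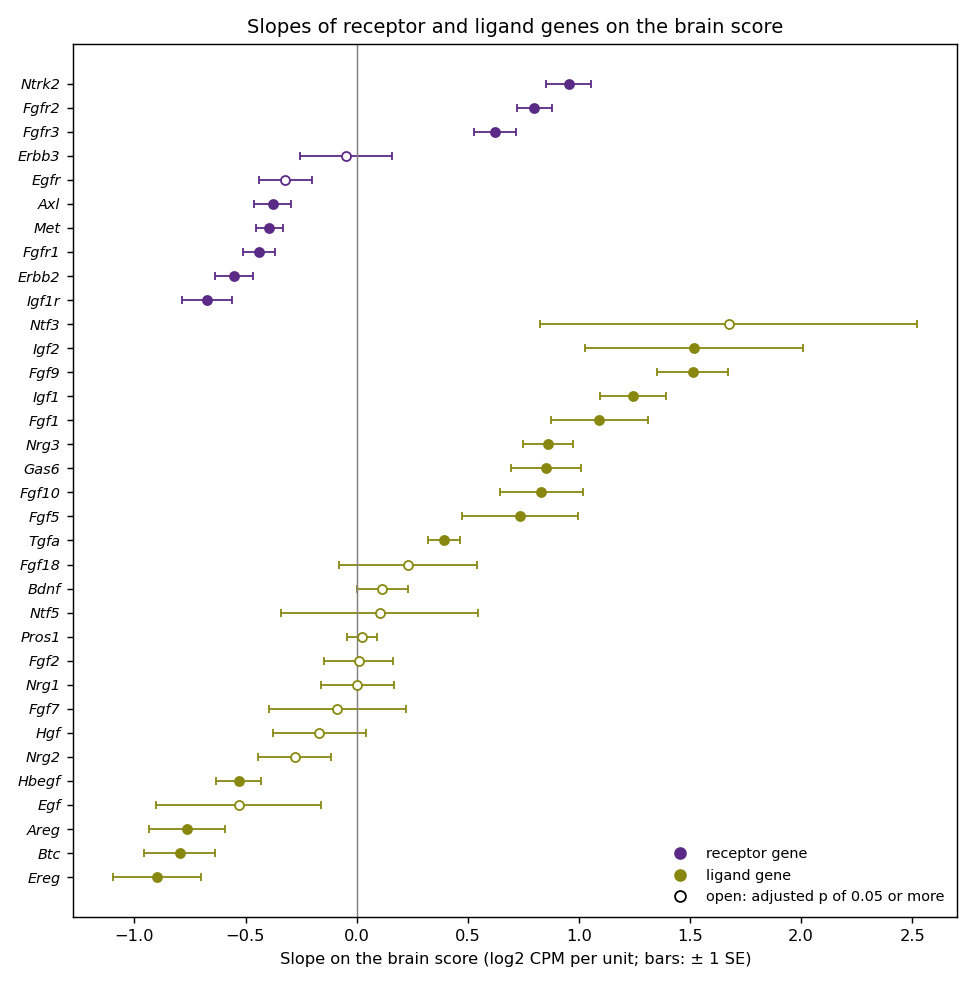
Slope on the brain score, in log2 CPM per unit, for the 10 receptor genes and the 24 tested ligand genes. Bars are ± 1 SE, filled points passed the edgeR test and open points did not; 3 filled receptor points lie above 0 and 5 below, beside 9 and 4 of the ligands.

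The receptors that moved in opposite directions changed their proportions widely. The ratio of Axl to Ntrk2 counts was 2.42, 0.847 and 0.992 in GSC2 tumours and 4.92, 10.6, 0.467 and 0.602 in GSC1 tumours. Counts of Fgfr1 exceeded those of Fgfr2 by 16.4, 4.63 and 5.01 times in GSC2 and by 22.4, 48.1, 2.85 and 3.90 times in GSC1. Both ratios were highest in GSC1 tumour 2 and lowest in GSC1 tumour 3, the ends of the score. Over all 7 tumours the highest value was at least 3 times the lowest for 6 of the 10 receptor genes and for 48.2% of all genes tested.

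The plot of slopes gives each receptor beside the ligand genes described further on. Promoters are shown to set genes of opposite slope side by side. They are those of Ntrk2 and Fgfr2, which had the steepest rises, of Met, and of Axl, the falling gene with the highest level per transcript length. The fall of Met passed narrowly in the fit of the score alone without the short-biased libraries (edgeR adjusted p = 0.0499). RefSeq (GRCm38.p6) windows of 300 bases, 250 before to 50 after the annotated start, were matched for 8 of the 10 genes. Fgfr1 and Erbb3 are named only, and Fgfr3 had 2 starts. Capitals mark the GC box GGGCGG, the core of Sp1 sites, on either strand (CCGCCC on the other), and TGANTCA, the AP-1 site, which reads the same way on the other strand.
Ntrk2 (chr13:58806319-58806618, plus strand): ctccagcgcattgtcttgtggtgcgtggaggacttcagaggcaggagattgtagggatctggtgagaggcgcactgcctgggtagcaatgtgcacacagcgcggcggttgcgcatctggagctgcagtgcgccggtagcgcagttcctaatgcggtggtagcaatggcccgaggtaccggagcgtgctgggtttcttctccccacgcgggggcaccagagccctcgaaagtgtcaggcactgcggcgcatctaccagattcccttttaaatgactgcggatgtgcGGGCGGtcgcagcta
Fgfr2 (chr7:130266759-130267058, minus strand): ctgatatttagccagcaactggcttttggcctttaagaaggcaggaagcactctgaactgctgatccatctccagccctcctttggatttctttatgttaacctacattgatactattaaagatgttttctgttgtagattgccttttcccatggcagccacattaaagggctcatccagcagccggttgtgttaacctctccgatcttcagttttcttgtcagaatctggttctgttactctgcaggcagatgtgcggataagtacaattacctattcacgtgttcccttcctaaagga
Axl (chr7:25788684-25788983, minus strand): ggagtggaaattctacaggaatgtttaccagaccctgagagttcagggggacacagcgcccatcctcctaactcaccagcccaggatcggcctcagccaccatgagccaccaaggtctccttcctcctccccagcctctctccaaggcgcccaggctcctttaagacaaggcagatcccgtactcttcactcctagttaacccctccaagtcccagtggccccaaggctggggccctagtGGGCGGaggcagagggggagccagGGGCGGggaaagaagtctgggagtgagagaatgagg
Met (chr6:17463707-17464006, plus strand): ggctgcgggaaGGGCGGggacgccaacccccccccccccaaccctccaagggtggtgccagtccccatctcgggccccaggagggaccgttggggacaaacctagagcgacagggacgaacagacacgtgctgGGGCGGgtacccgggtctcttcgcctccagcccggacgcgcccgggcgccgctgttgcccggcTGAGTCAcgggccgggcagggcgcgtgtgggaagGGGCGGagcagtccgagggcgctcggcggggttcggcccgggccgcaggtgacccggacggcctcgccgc

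The windows differed in base composition within each set. Among the rising receptors the Ntrk2 window had 61.3% G and C with 23 CpG dinucleotides, and the Fgfr2 window had 43.7% with 4. Among the falling ones the Met window had 75.7% with 34 CpG dinucleotides and the Axl window 60.3% with 6, against medians of 52.7% and 7 over 32851 windows. GGGCGG was present in 6 of the 8 matched genes and in 35.7% of all windows. It occurred 3 times in the Met window, 2 times in Axl, 1 time in Ntrk2 and not in Fgfr2. Apart from Fgfr2, the matched genes had windows of 60.3 to 76% G and C, above the median of all windows, and Fgfr3 had 2 windows. The shares therefore do not compare windows of like composition. TGANTCA occurred in Met alone of the 8, and in 7.81% of all windows, while TATAAA occurred in 0 of the 8 and in 13.6% of all windows. CACGTG, an E-box, was in the Met and Fgfr2 windows, overlapping no marked motif there, and in 7.15% of all. These are matches of letters in an annotated window, and no binding was measured.

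Levels of different genes were compared per kilobase of longest transcript. On that scale Axl was highest at 138 ± 54.1 CPM per kilobase (SD, n = 7), followed by Fgfr1 at 57.4 ± 21.3 and Ntrk2 at 50.1 ± 32.4. A lower tier held Fgfr3 at 16.6 ± 9.26, Met at 10.0 ± 3.83, Fgfr2 at 8.23 ± 4.49 and Erbb2 at 6.54 ± 3.05 CPM per kilobase. Igf1r at 4.05 ± 2.23, Egfr at 3.43 ± 1.28 and Erbb3 at 2.47 ± 1.17 CPM per kilobase were the lowest. Neighbours in this order other than Axl and Fgfr1, and Ntrk2 and Fgfr3, differed by less than the larger of their SDs.

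**Figure D5:**
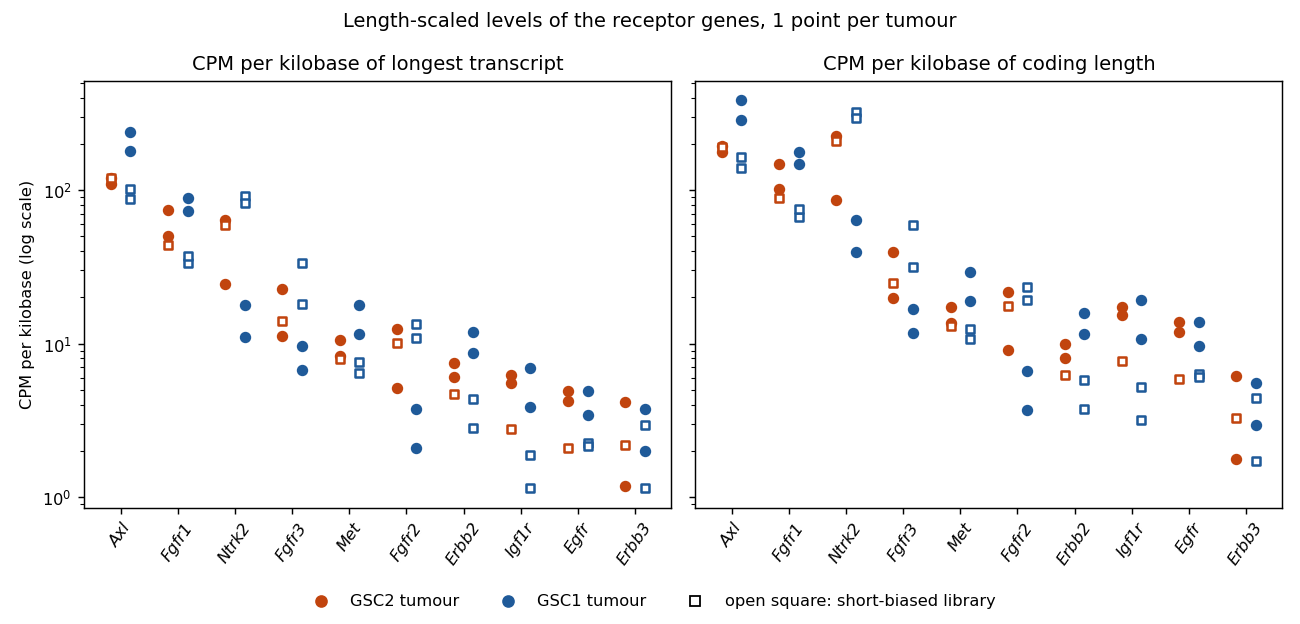
CPM per kilobase of longest transcript (left) and of coding length (right) for the 10 receptor genes on a log axis, 1 point per tumour, GSC2 left of GSC1, with short-biased libraries as open squares. Axl and Erbb3 stand at the ends of the order on the left, and Ntrk2 reaches above Axl in 4 tumours on the right.

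The plot of length-scaled levels shows that Axl led in 6 tumours and Ntrk2 in 1, GSC1 tumour 3. Divided by coding length instead, Axl (220 ± 86.7 CPM per kilobase) led in 3 tumours and Ntrk2 (178 ± 115) in 4, and Igf1r and Egfr ranked above Erbb2. The order of these genes therefore depended on the length used, while Erbb3 was lowest by both.

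The genes most like each receptor were found by the root mean square distance between standardised log2 CPM profiles over the 7 tumours, among 11895 other genes of at least 5 CPM. Ntrk2 was closest to Lgi3, at a distance of 0.06, then Sh3bp5 and Adgrb3. Lgi3, which encodes a secreted protein of the nervous system, was at 26.6, 111 and 89.0 CPM in GSC2 and 16.6, 7.94, 187 and 132 CPM in GSC1, the same order of tumours as Ntrk2. Fgfr1 was closest to Pitrm1, a mitochondrial protease gene, at 0.03. Pitrm1 was at 119, 88.2 and 78.5 CPM in GSC2 and 119.6, 139.5, 60.6 and 67.1 CPM in GSC1.

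For the other receptors the nearest gene was Rtl6 for Fgfr2, Grm7 for Fgfr3, Zfp970 for Egfr, Fip1l1 for Erbb2, Prrg4 for Met, Ano6 for Igf1r and Stc1 for Axl, at distances of 0.08 to 0.12. Erbb3 had no close match, with Tmcc3 nearest at 0.39. Among the 45 pairs of receptor genes the closest were Fgfr2 and Ntrk2 (0.17), Erbb2 and Fgfr1 (0.23) and Met and Axl (0.27), and the farthest were Met and Fgfr2 (1.84). These distances describe 7 libraries that share depth, length and brain marker differences.

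Of 29 ligand genes of these receptors 24 passed the filter on low counts, and 0 passed the test between the lines. Their median fold was -0.34, with 7 of 24 above 0. For 4 of the 24 the values did not overlap between the lines, against 5.58% of all genes. Bdnf, the ligand of TrkB, was at 15.6, 16.1 and 22.4 CPM in GSC2 and 9.50, 8.93, 13.6 and 6.95 CPM in GSC1. Every GSC2 tumour was above every GSC1 tumour, with a log2 fold change of 0.88 (SE 0.31, edgeR quasi-likelihood test, unadjusted p = 0.0227, adjusted p = 0.9999). Nrg1, a neuregulin that binds ERBB3, was at 1.78, 4.59 and 2.46 CPM in GSC2 and 5.85, 9.23, 8.27 and 4.86 CPM in GSC1. Every GSC2 tumour was below every GSC1 tumour (log2 fold change -1.26, SE 0.45, edgeR unadjusted p = 0.0257, adjusted p = 0.9999).

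Pros1, which encodes the TAM receptor ligand protein S, was also lower in every GSC2 tumour, at 85.1, 87.7 and 108 CPM, against 111, 127, 129 and 118 CPM in GSC1 (log2 fold change -0.38, SE 0.19). Fgf18 was at 1.33 CPM or less in GSC2 and 1.65 to 4.62 CPM in GSC1. None of these 4 ligand genes passed after adjustment, and none had a slope on the brain score that passed.

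Ligands of the EGF family split in the same tumours in which the receptors did. Hbegf, Areg, Ereg and Btc, all EGFR ligands, fell with the brain score, and Tgfa, another EGFR ligand, rose, as did Nrg3, a ligand of ERBB4. Btc was at 15.3, 20.2 and 12.9 CPM in GSC2 and 41.4, 75.8, 7.55 and 14.8 CPM in GSC1, with a slope of -0.80 (SE 0.16, edgeR adjusted p = 0.0057). Tgfa was at 29.6, 48.4 and 41.5 CPM in GSC2 and 20.6, 15.9, 37.6 and 37.0 CPM in GSC1, with a slope of 0.39 (SE 0.07, edgeR adjusted p = 0.0040). GSC1 tumour 2, the lowest in score, was thus highest in Btc and lowest in Tgfa.

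Among ligands of the FGF and IGF receptors and of the TAM receptors, Fgf1, Fgf5, Fgf9, Fgf10, Igf1, Igf2 and Gas6 rose, and Fgf2, Fgf7, Fgf18 and Pros1 had no slope that passed. Fgf9 had a slope of 1.51 (SE 0.16, edgeR adjusted p = 0.00063), Fgf1 of 1.09 (SE 0.22, edgeR adjusted p = 0.0055) and Igf1 of 1.24 (SE 0.15, edgeR adjusted p = 0.00095). Gas6, the main ligand of AXL, was at 62.9, 95.3 and 111 CPM in GSC2 and 43.6, 19.7, 118 and 196 CPM in GSC1 (slope 0.85, SE 0.16, edgeR adjusted p = 0.0042). Within GSC1, Axl was lowest in tumours 3 and 4, which had the most Gas6, and highest in tumour 2, which had the least. Within GSC2 this order was not seen: Axl was at 516 and 514 CPM in tumours 1 and 3, which had the least and the most Gas6. Igf2 was at 76.5, 183 and 117 CPM in GSC2 and 5.36, 11.4, 157 and 550.0 CPM in GSC1 (slope 1.52, SE 0.49, edgeR adjusted p = 0.0354). Igf2 is a product of choroid plexus and meninges, and choroid plexus markers summed to 2189, 2922 and 5039 CPM in GSC2 and 80.8, 138, 88.4 and 9063 CPM in GSC1. Fibroblast markers summed to 426, 420 and 531 CPM in GSC2 and 450, 414, 2202 and 951 CPM in GSC1. The part of either marker set in the Igf2 values was not tested. In all, 9 of the 24 ligand genes rose with the score and 4 fell, beside 23.4% and 22.9% of all genes. Hgf, the ligand of MET, was at 0.857 to 2.56 CPM in every tumour with no slope that passed.

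Downstream of the receptors, 15 adaptor genes were tested. Between the lines 0 passed, 0 had an unadjusted p under 0.05 and the median fold was 0.03. On the score 2 rose, Gab1 and Frs3, and 4 fell, Shc1, Gab2, Irs1 and Plcg1, which is near the shares of all genes, 23.4% and 22.9%. Irs1, the docking protein of the IGF1 and insulin receptors, fell with a slope of -0.51 (SE 0.11, edgeR adjusted p = 0.0065), alongside Igf1r. Shc1, an adaptor of ERBB and Trk receptors, fell with a slope of -0.46 (SE 0.07, edgeR adjusted p = 0.0021).

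Of 14 genes for receptor inhibitors and IGF-binding proteins, 0 passed between the lines, 1 rose with the score and 7 fell, beside 23.4% and 22.9% of all genes. Errfi1, which encodes the feedback inhibitor MIG6 of the ERBB kinases, was at 112, 92.0 and 105 CPM in GSC2 and 271, 344, 108 and 111 CPM in GSC1. Its GSC2 values matched the lower GSC1 pair, and the log2 fold change was -1.01 (SE 0.46, edgeR unadjusted p = 0.0625, adjusted p = 0.9999). Cbl and Cblb, ubiquitin ligases that mark activated receptors for degradation, were among the 7 that fell. Igfbp3 fell (slope -0.78, SE 0.15, edgeR adjusted p = 0.0047), and Igfbp5 rose (slope 0.84, SE 0.09, edgeR adjusted p = 0.00070).

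Of 10 related receptor genes outside the list, 0 passed between the lines, 3 rose with the score and 2 fell, near the 23.4% and 22.9% of all genes. Erbb4 rose with a slope of 0.95 (SE 0.14, edgeR adjusted p = 0.0020), unlike Erbb2, and Ntrk3 rose with 0.70 (SE 0.15, edgeR adjusted p = 0.0064), as Ntrk2 did. Mertk, the TAM receptor of phagocytes and astrocytes, fell with -0.56 (SE 0.12, edgeR adjusted p = 0.0073), as Axl did. Fgfrl1, a fibroblast growth factor receptor without a kinase, was the only 1 of the 10 whose values did not overlap (5.58% of all genes), at 111, 80.0 and 101 CPM in GSC2 and 71.1, 73.2, 72.7 and 72.6 CPM in GSC1 (log2 fold change 0.43, SE 0.19, edgeR adjusted p = 0.9999).

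By the annotation (GENCODE M21, GRCm38), Egfr and Erbb2 lie on chromosome 11, Fgfr2, Igf1r and Axl on 7, Erbb3 on 10, Met on 6, Fgfr1 on 8, Fgfr3 on 5 and Ntrk2 on 13. Fgfr2 shares 314 exonic bases with Ctbp2 on the same strand, and Fgfr3 shares 998 exonic bases with a gene on the opposite strand, G630022F23Rik. Fgfr1 shares 164 exonic bases with Gm16159 on the opposite strand, a gene with 2 counts over all tumours, and Erbb2 shares 9 bases with Mien1 on the opposite strand. How the authors' counting treated strand is not known from the labels, and values of Fgfr2 and Fgfr3 are uncertain by the reads in those bases.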

How the data were processed

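Per the labels' protocols, tumour RNA was purified on RNeasy Plus columns and NEBNext Ultra libraries were sequenced. The deposited values are raw counts per Ensembl gene, 1 table per tumour. Per the submitters' processing notes the authors used TopHat2 2.0.11 and HTSeq, with builds mm9 and dm3 named without roles. The HTSeq version, and how it treated strand and overlaps: not given in the sources used here. Summary lines were left out of library sizes: 6.19 to 14.2% of a library's reads fell on no gene, 12.8 to 21.0% were not unique and 0.357 to 0.460% were ambiguous. GENCODE M21 gave symbols for 32897 of 37620 identifiers, and lengths. No libraries were duplicates (smallest chi-square per degree of freedom 66.5).

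R 4.3.3 and edgeR 4.0.16 were used: filterByExpr (16068 genes), TMM factors, a robust quasi-likelihood fit on line alone, and on line with the brain score, with Benjamini-Hochberg adjustment over all genes and a threshold of 0.05. DESeq2 1.42.0, limma-voom (limma 3.58.1), other factors and filters, a block, a length trend and left-out tumours were alternatives. Log2 CPM had a prior count of 2. The tests were checked on simulated counts. The receptor list, the other lists (10 related receptors, 29 ligands, 15 adaptors, 14 inhibitors) and the tests were chosen with earlier results of these data known. Genes outside the list were named if they passed in a fit described, were among the 6 of their list with the smallest unadjusted p between the lines, or were ligands of the receptors. For each receptor up to 3 nearest profiles were named, predicted genes left out.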

Additional observations from a re-analysis of the deposited data

Results flagged for a closer look

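No receptor gene of the list had a GSC1 tumour set apart from the other 3 of its line. Among 73 genes looked at, which include the ligands, adaptors, inhibitors and related receptors, 3 did, by a gap to the nearest other tumour, divided by the line's range, above Dixon's 95% critical value for 4 samples. Chance gives about 1 such group in 20, and lines of 3 tumours were not examined. Igfbp2, an IGF-binding protein gene, was at 496 CPM in GSC1 tumour 4, against 112, 95.9 and 59.4 CPM in GSC1 tumours 1 to 3. That tumour also had the highest choroid plexus markers of the line, 9063 CPM, whose part in the value was not tested. Ntf3, which encodes the ligand neurotrophin 3 of the Trk receptors, was at 2.00 CPM in GSC1 tumour 4, against 0.0580, 0 and 0 CPM in the others. Sos2, a Ras exchange factor gene, was at 58.5 CPM in GSC1 tumour 2, against 36.4, 37.2 and 38.4 CPM in GSC1 tumours 1, 3 and 4.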

How the results depend on the processing

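The number of genes called between the lines, 0 in the fit of line alone, was 1 without the filter, 192 in DESeq2, 1 in limma-voom, 138 with the brain score, 282 with score and length trend, 55 without the 3 short-biased libraries, and 0 with RLE or upper-quartile factors, a minimum of 5 CPM, the length trend alone, the replicate block or any tumour left out. No receptor gene of the list was called in any of them. Folds that turned sign were, for Erbb2, 0.24 with the score and 0.15 with score and length trend. For Erbb3 they were -0.0035 with RLE factors and in DESeq2, -0.34 with the replicate block, -0.051 with the length trend, -0.089 with score and length trend and -0.079 without the 3 libraries. For Fgfr1 they were 0.042 in limma-voom, 0.23 with the score and 0.14 with score and length trend, for Fgfr3 0.14 in limma-voom, 0.24 with the block and 1.05 without the 3 libraries, and for Ntrk2 0.36, 0.75 and 1.60 in those same settings. With each tumour left out in turn, folds ranged from -0.018 to 0.52 for Egfr, -0.48 to 0.20 for Erbb2, -0.54 to 0.37 for Erbb3, -0.50 to 0.061 for Met, -0.30 to 0.23 for Fgfr1, -0.018 to 0.69 for Fgfr2, -0.42 to 0.45 for Fgfr3, 0.17 to 1.08 for Igf1r, -0.61 to -0.074 for Axl and -0.38 to 0.36 for Ntrk2.

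Tumours of the same number in the lines correlated by 0.58, -0.31 and 0.41 in their deviations from the line means, and GSC2 tumour 1 correlated best with GSC1 tumour 2 (0.70), so the numbers are taken only as names and the replicate block as an alternative. On the brain score 7441 genes were called, 1089 with the replicate block, 1444 in a fit of the score alone without the 3 libraries (chosen after seeing the data), and 3699 to 7837 with a tumour left out, lowest without GSC1 tumour 2 (3699) and GSC1 tumour 3 (4340). Falling receptor genes numbered 5, 0 with the block, 1 in the fit without the 3 libraries and 4 to 6 with a tumour left out, and rising ones 3 in every setting. Slopes no longer called with the block were -0.43 for Erbb2, -0.38 for Met, -0.33 for Fgfr1, -0.43 for Igf1r and -0.38 for Axl. In the fit without the 3 libraries they were -0.33 for Erbb2, -0.27 for Fgfr1, -0.088 for Igf1r and -0.39 for Axl, and Igf1r was at -0.53 with the score alone. Egfr turned to 0.021 without the 3 libraries, and Erbb3 to 0.20 with the block, 0.047 with the length trend and 0.071 without the 3 libraries. With a tumour left out, slopes ranged from -0.39 to -0.26 for Egfr, -0.28 to 0.40 for Erbb3 and -0.43 to -0.34 for Axl. The cause of these changes was not tested, and the block and the fit without the 3 libraries leave fewer degrees of freedom. With 7 tumours, a 2-fold difference in 1 direction or both lay inside the 95% interval (5 residual degrees of freedom) of all 10 receptor genes.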
